A study of Saccharomyces cerevisiae with 12 samples.

Results

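Deleting SET2 while the helicase Prp43 is intact was followed through unannotated splice forms in 4 libraries of budding yeast, out of 12 in the series. Members were taken by genotype and temperature: set2Δ at 25 °C, set2Δ at 37 °C, wild type at 25 °C and wild type at 37 °C, with 1 library each and no prp43-1 library. All 4 come from haploid BY4741, labelled MATa his3Δ1 leu2Δ0 met15Δ0 ura3Δ0, with set2Δ added in the deletion strain. Cultures were in YPD, a rich medium. The growth note gives 25 °C for every culture and 37 °C stands only in the temperature field, so how long the warm cultures spent at 37 °C is not given. No label says whether both libraries of a strain come from separate cultures. Total RNA, taken up in hot phenol and cleared of DNA, was sequenced after ribosomal RNA had been depleted. What was counted is reads that skip a stretch of genome, called a form, each assigned to the gene it lies in, its host. Of 6195 forms in the table, 3146 had a read in the 4 libraries, in 938 of 1937 hosts. The set2Δ libraries together held 2303 forms and the wild-type libraries 2430.

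Set2 is the yeast methyltransferase for lysine 36 of histone H3. It travels with elongating RNA polymerase II, and the mark it leaves recruits the Rpd3S histone deacetylase, which keeps transcription from starting inside genes. Prp43 takes spliceosomes apart after splicing or when they stall. The design asks which forms and which hosts differ without Set2 when Prp43 can still discard such spliceosomes.

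Before any comparison, the labels were set against the reads. Genes expressed only in cells of the alpha mating type had 38 and 2 reads in set2Δ at 25 and 37 °C, against 0 and 0 in wild type. MF(ALPHA)1, which encodes the alpha-factor pheromone, supplied 29 and 2 of them. The gene STE2, which encodes the receptor carried by MATa cells, had 0 and 0 reads in set2Δ, against 1 and 3 in wild type. HMRA1, the silent copy of the a1 regulator gene, had 0 and 0 reads in set2Δ, against 4 and 6 in wild type, and was looked up after its values were seen. So the libraries labelled set2Δ carry alpha-type reads although their label says MATa, and the wild-type libraries carry a-type reads. The set1Δ libraries, which lack another histone H3 methyltransferase and are labelled MATa too, had 61 and 16 alpha-specific reads and 0 reads of STE2 and HMRA1, so the mismatch is not set2Δ's alone. Any difference below is therefore between strains that also differ in these mating-type reads, and the part of mating type in the other results was not tested. In bulk RNA, fewer cells of a type and less RNA per cell cannot be told apart. The deletion itself could not be checked, because SET2 had 0 reads in all 4 libraries.

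Column totals were 275089 and 235458 reads in set2Δ at 25 and 37 °C, against 402886 and 214055 in wild type. Forms in SCR1, the RNA core of the particle that directs secreted proteins to the endoplasmic reticulum, took 80.8% and 83.4% of the reads in set2Δ, against 87.5% and 74.5% in wild type. Outside SCR1 there were 52738 and 39068 reads in set2Δ, against 50400 and 54633 in wild type. The SCR1 share was therefore lower in set2Δ at 25 °C and higher at 37 °C, and how the libraries are put on a common scale decides which way most forms lean. TMM scaling, which lines up the bulk of the ratios between libraries, was the main choice, applied to forms and separately to hosts. The host scale lies 0.44 log2 below the form scale at 25 °C and 0.29 log2 above it at 37 °C, so values on the form scale and on the host scale are not interchangeable.

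With 1 library per genotype and temperature, the only test across libraries is a fit of all 4 with temperature as a term, which leaves 1 residual degree of freedom. In edgeR's quasi-likelihood test 0 of 393 forms (0%) and 0 of 99 hosts (0%) passed a Benjamini-Hochberg adjusted p of 0.05. Unadjusted p-values under 0.05 came from 10 forms and 6 hosts, and DESeq2 called 0 forms and 0 hosts, with 2 and 1 unadjusted. The 6 hosts with the lowest p were SNR30, RPS22B, POR1, NME1, ADH1 and CWP2, and the lowest adjusted p among them was 0.351. Everything that follows is therefore described from counts within a temperature. A form or host was set apart when the pair of libraries held at least 10 reads, the scaled ratio was at least 2-fold and its exact 95% counting interval excluded no difference. Such intervals cover counting error only and treat each read as an independent molecule. Amplified reads are not independent, so the intervals can be too narrow, and they say nothing of the spread between cultures.

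Few hosts differed the same way at both temperatures. Of 117 hosts with enough reads in both pairs, 1 was past 2-fold higher at both (0.855%), 1 lower at both (0.855%) and 0 in opposite directions. Another 9 were higher and 7 lower at 25 °C with no such difference at 37 °C, 6 were higher and 3 lower at 37 °C with none at 25 °C, and 90 were in none of these groups. Taken temperature by temperature, 11 of 132 hosts were higher (8.33%) and 12 lower (9.09%) at 25 °C, and 12 of 179 were higher (6.7%) and 11 lower (6.15%) at 37 °C. On plain column totals the same split was 25 higher and 3 lower at 25 °C and 2 higher and 37 lower at 37 °C.

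**Figure D1:**
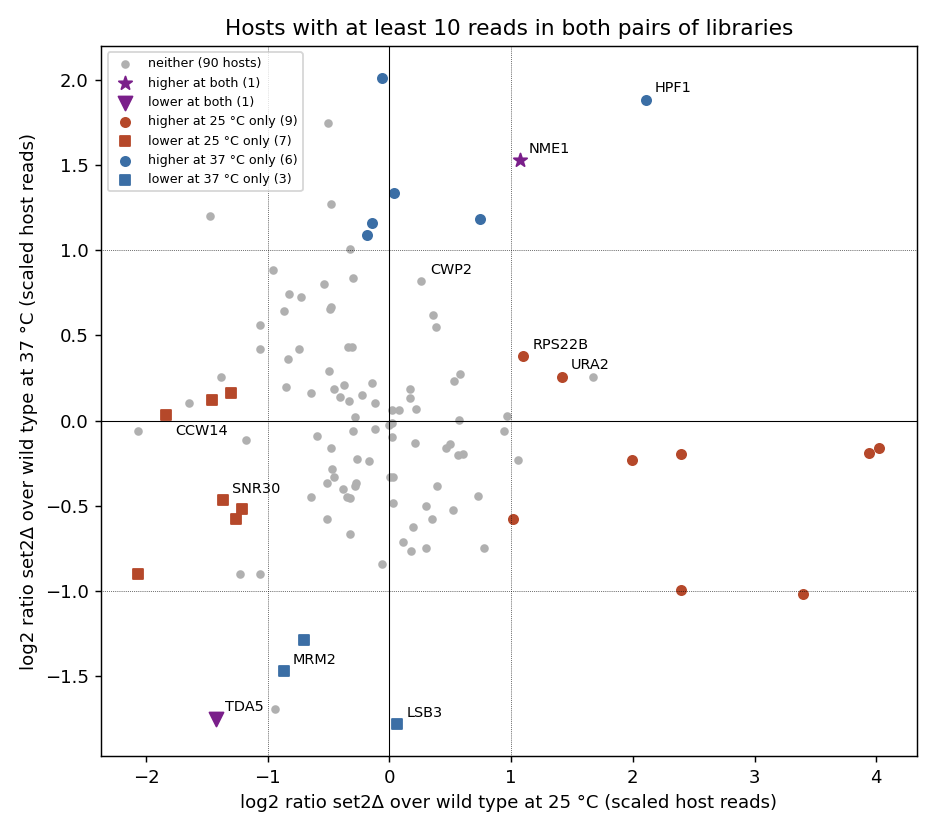
Log2 ratio of set2Δ over wild type at 25 °C (horizontal) and at 37 °C (vertical) for the 117 hosts with at least 10 reads in both pairs, on the host scale; dotted lines mark 2-fold. NME1 alone is past 2-fold and its interval at both temperatures on the higher side and TDA5 alone on the lower side, and the other 25 coloured hosts are past these limits at 1 temperature.

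The host higher at both temperatures was NME1, the RNA of RNase MRP, which cuts the ribosomal RNA precursor. Its forms had 46 and 28 reads in set2Δ at 25 and 37 °C, against 21 and 13 in wild type. On the host scale its log2 ratio was 1.07 at 25 °C (0.30 to 1.89) and 1.53 at 37 °C (0.53 to 2.60). Both set2Δ counts exceeded both wild-type counts. The edgeR fit gave a log2 fold change of 1.27 ± 0.50 (SE) with an adjusted p of 0.716. The 2-fold limit was passed at both temperatures with TMM factors, with or without SCR1 in the totals. It was just missed at 25 °C with RLE size factors (0.99) and at 37 °C on column totals (0.97). Its forms had 11 and 13 reads in set1Δ, which shares this wild-type control. Nearly all of them skip the same 31 nt, chrXIV:585648-585678 on the plus strand of R64, with 44 and 23 reads in set2Δ, against 18 and 13 in wild type. On the form scale this 31 nt form was past the limits at 25 °C (log2 ratio 1.67) but not at 37 °C, where its interval included no difference.

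The host lower at both was TDA5, where the most-read form runs between its annotated 5′ splice site and an unannotated 3′ end. It had 7 and 4 reads in set2Δ, against 18 and 18 in wild type. On the host scale the log2 ratio was -1.42 at 25 °C (-2.93 to -0.10) and -1.75 at 37 °C (-3.77 to -0.14). Both set2Δ counts were below both wild-type counts, at low depth, and the edgeR fit gave -1.55 ± 0.81 (SE) with an adjusted p of 0.902. At 25 °C TDA5 was no longer set apart on column totals (-0.81) or with SCR1 left out of the totals (-1.26). In set1Δ TDA5 had 1 and 29 reads.

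When the 2-fold limit was dropped, a choice made after the values were seen, 5 of 117 hosts (4.27%) had intervals above no difference at both temperatures, 8 (6.84%) below it at both and 8 (6.84%) on opposite sides. On column totals the same counts were 1, 2 and 25. The 5 higher hosts were NME1, RPS22B, CWP2, POR1 and SED1. CWP2, a mannoprotein of the cell wall, had 4123 and 3779 reads in set2Δ, against 3303 and 2870 in wild type. Its host-scale log2 ratio was 0.26 at 25 °C and 0.82 at 37 °C, and it stayed higher at both under all 4 scalings. POR1, the porin of the mitochondrial outer membrane, had 271 and 460 reads in set2Δ, against 203 and 401 in wild type. The 8 lower hosts were TDA5, the small nucleolar RNA genes SNR30 and SNR17A, the wall protein gene HSP150 and 4 glycolysis and fermentation genes, PGK1, ENO2, PDC1 and ADH1. PGK1, phosphoglycerate kinase, had 2429 and 2041 reads in set2Δ, against 2970 and 3726 in wild type, a host-scale log2 ratio of -0.35 and -0.45. SNR30 alone of the 8 stayed lower at both temperatures under all 4 scalings. On column totals the sign turned at 25 °C for SNR17A (0.50), PDC1 (0.45), ENO2 (0.34), PGK1 (0.26), HSP150 (0.14) and ADH1 (0.10). At 37 °C it turned for SED1 (-0.37) and RPS22B (-0.18). SNR17A, PDC1 and ENO2 were lower at both temperatures under only 1 of the 4 scalings, the main one.

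**Figure D2:**
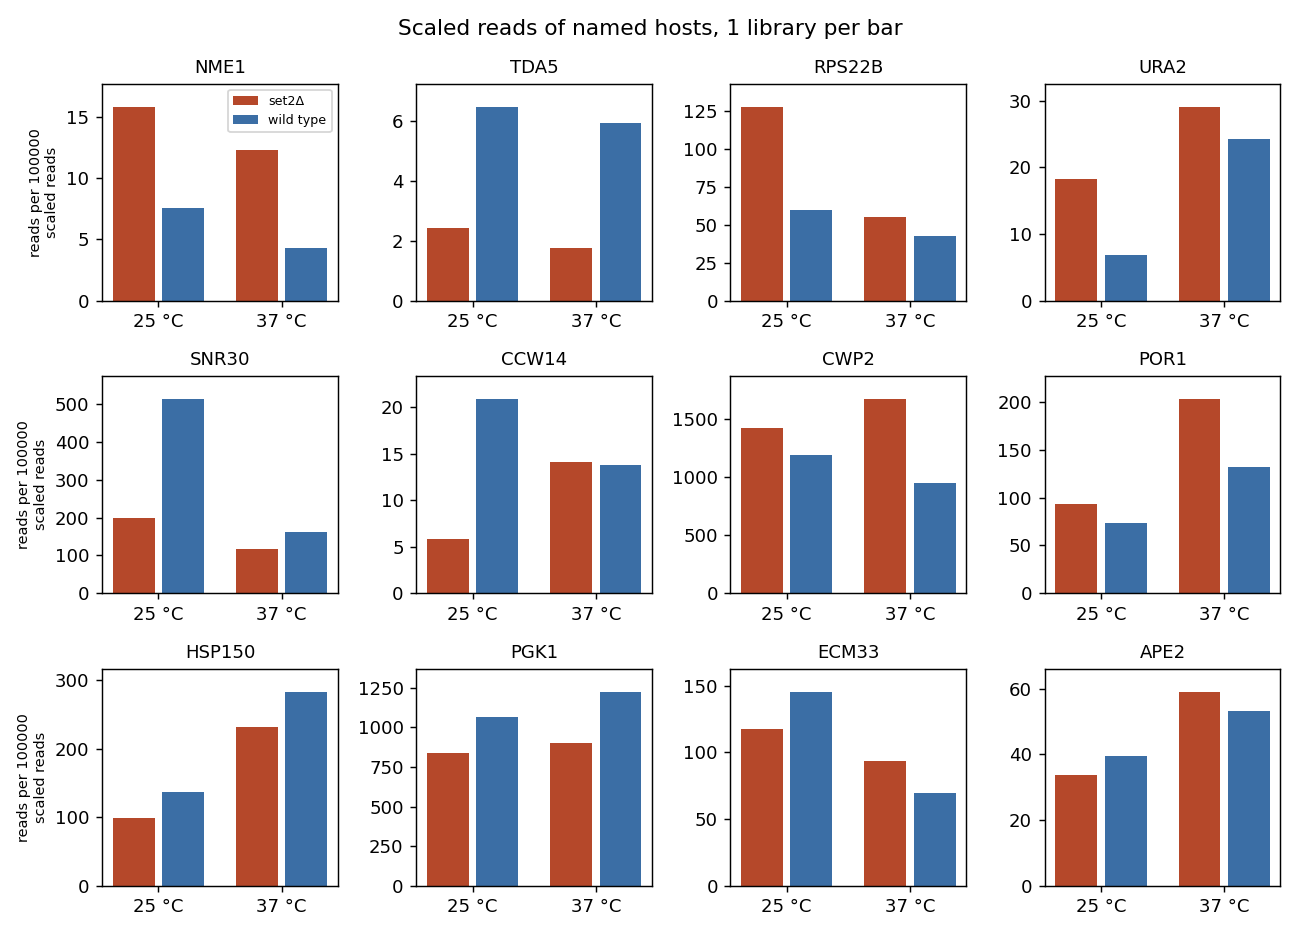
Reads per 100000 scaled reads in 12 named hosts, with set2Δ left of wild type at 25 °C and at 37 °C and 1 library per bar; each panel has its own axis from 0. NME1 reaches 15.8 and 12.3 in set2Δ, against 7.54 and 4.27 in wild type, whereas RPS22B, URA2 and CCW14 differ mainly at 25 °C.

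SNR30 encodes a box H/ACA small nucleolar RNA needed to cut out 18S ribosomal RNA. It had 579 and 266 reads in set2Δ, against 1429 and 492 in wild type. Its host-scale log2 ratio was -1.36 at 25 °C (-1.51 to -1.22) and -0.46 at 37 °C (-0.68 to -0.25), and these differed by 0.90 (0.64 to 1.16) in counting terms. On column totals the SNR30 ratio was -0.75 at 25 °C and -1.02 at 37 °C, so the difference between temperatures depends on the scaling. It was the host with the lowest p in the edgeR fit, at -0.93 ± 0.23 (SE) and an adjusted p of 0.351. In set1Δ SNR30 had 475 and 976 reads. Most of its reads skip 46 nt, chrXII:199319-199364, with 390 and 148 reads in set2Δ, against 974 and 335 in wild type. On the form scale the log2 ratio of that form was -0.94 at 25 °C and -1.05 at 37 °C. The share of SNR30 reads on that form was 67.4% and 55.6% in set2Δ, against 68.2% and 68.1% in wild type.

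At the level of single forms, 1 of 454 with enough reads in both pairs was lower at both temperatures (0.22%) and 0 were higher at both (0%). It skips 54 nt of HSP150, chrX:121192-121245, inside the coding sequence. HSP150 encodes a wall protein built from PIR repeats. The form had 10 and 20 reads in set2Δ, against 32 and 51 in wild type. Its form-scale log2 ratio was -1.29 at 25 °C (-2.48 to -0.23) and -1.22 at 37 °C (-2.04 to -0.45). With SCR1 left out of the totals the ratio at 37 °C was -0.95, short of 2-fold. Its edgeR value was -1.25 ± 0.44 (SE) with an adjusted p of 0.995. The stretches skipped in the 3 noncoding and wall protein genes named so far are shown because none has the ends of a yeast intron.
SNR30 46 nt: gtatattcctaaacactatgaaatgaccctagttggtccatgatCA
NME1 31 nt: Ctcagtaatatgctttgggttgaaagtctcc
HSP150 54 nt: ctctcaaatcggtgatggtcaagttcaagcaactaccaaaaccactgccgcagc
They run 5′ to 3′ on the plus strand of R64. Capitals mark end bases that recur at the opposite edge of the gap, 2 in SNR30, 1 in NME1 and 0 in HSP150, where the place of the gap is uncertain by that many bases. The SNR30 stretch begins with GT but ends with CA in place of AG.

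Without the 2-fold limit 8 forms (1.76%) were higher at both temperatures, 5 (1.1%) lower at both and 41 (9.03%) on opposite sides. Of the 8 higher forms 4 lie in SCR1, 2 in CWP2, 1 in RPS22B and 1 in POR1. The 5 lower forms lie in SNR30 and HSP150, with 2 each, and in SCR1. Of the 41, 23 lie in SCR1 and were all lower at 25 °C and higher at 37 °C in set2Δ, as the SCR1 shares were, and the other 18 all went the other way. Forms with opposite signs outnumbered forms with the same sign, on the form scale as on the totals without SCR1, where 66 were opposite, 10 higher and 5 lower.

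At 25 °C alone, 49 of 547 forms were past 2-fold higher in set2Δ (8.96%) and 15 lower (2.74%) on the form scale. At 37 °C, 9 of 587 were higher (1.53%) and 45 lower (7.67%). These leanings follow the scaling. With totals that leave out SCR1 there were 25 higher and 40 lower at 25 °C and 26 of each at 37 °C, and with the TMM factors of hosts 16 higher and 66 lower at 25 °C and 26 higher and 25 lower at 37 °C. No direction for the whole set of forms is drawn from them.

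**Figure D3:**
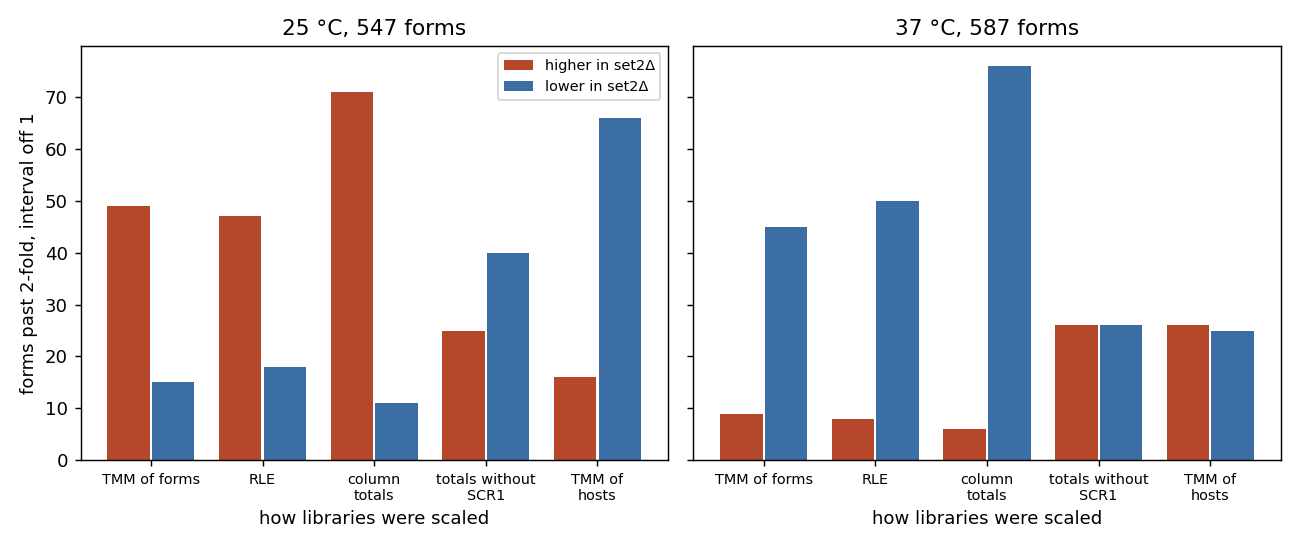
Number of forms past 2-fold with an interval off no difference, higher (left bar) or lower (right bar) in set2Δ than in wild type, under 5 ways of scaling the libraries, at 25 °C (547 forms) and 37 °C (587 forms). At 25 °C the split goes between 71 higher with 11 lower on column totals and 16 higher with 66 lower on the host factors.

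RPS22B, which encodes a protein of the small ribosomal subunit, was the most-read coding host past 2-fold at 25 °C. It had 371 and 125 reads in set2Δ at 25 and 37 °C, against 166 and 129 in wild type. On the host scale its log2 ratio was 1.10 at 25 °C (0.83 to 1.37) and 0.38 at 37 °C (0.01 to 0.74). The set2Δ library at 25 °C stood above the other 3, which lay close together. In set1Δ RPS22B had 205 and 70 reads. The paralog RPS22A encodes a near-identical protein, so reads near coding ends could be split between the genes.

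Most of these reads belong to a 69 nt form that begins inside the annotated intron of the coding sequence and ends at its annotated 3′ splice site, chrXII:856989-857057 on the plus strand. Its sequence has every element of a yeast intron, with the 5′ splice site, the branch sequence TACTAAC and the final TAG in capitals.
RPS22B 69 nt: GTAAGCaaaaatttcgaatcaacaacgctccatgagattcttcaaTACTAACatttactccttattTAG
It had 327 and 81 reads in set2Δ, against 138 and 63 in wild type, and form-scale log2 ratios of 1.63 at 25 °C (1.34 to 1.93) and 0.49 at 37 °C (0.00 to 0.99). It made up 88.1% and 64.8% of the RPS22B reads in set2Δ, against 83.1% and 48.8% in wild type. The edgeR fit gave 1.10 ± 0.43 (SE) with an adjusted p of 0.995. With SCR1 left out of the totals the adjusted p was 0.0116, the lowest of 261 forms tested there, and SNR30's 46 nt form was the only other call, at 0.0287. Over all alternatives the adjusted p of the RPS22B form ran between 0.0116 and 1.00. The other main RPS22B form skips 550 nt in the leader before the coding sequence. It had 44 and 41 reads in set2Δ, against 28 and 63 in wild type, so its form-scale ratio was 1.04 at 25 °C and -0.49 at 37 °C.

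URA2, which encodes the enzyme for the first steps of pyrimidine synthesis, also differed at 25 °C. It had 53 and 66 reads in set2Δ, against 19 and 74 in wild type, and a host-scale log2 ratio of 1.42 at 25 °C (0.64 to 2.26) and 0.26 at 37 °C (-0.24 to 0.76). Its main form skips 340 nt upstream of the coding sequence, has 42 and 63 reads in set2Δ, against 11 and 67 in wild type, and begins with GTATGT. On the host scale the wild-type library at 25 °C was the lowest for URA2, at 6.82 reads per 100000 scaled reads. Values were 18.2 and 29.1 in set2Δ, and 24.3 in wild type at 37 °C. In set1Δ that URA2 form had 39 and 16 reads. In RPS10B, a small-subunit gene, a 379 nt form from the annotated 5′ site had 97 and 50 reads in set2Δ, against 47 and 67 in wild type. The RPS10B form had 86 and 51 reads in set1Δ.

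The remaining hosts higher at 25 °C only were read less. RPS2 had 29 and 7 reads in set2Δ, against 7 and 11 in wild type. RPS16B had 17 and 4 in set2Δ, against 1 and 6 in wild type, and RPS4A had 11 and 3, against 2 and 8. RPS16B and RPS4A have near-identical copies, so their reads are uncertain. HSC82, an Hsp90 chaperone gene with a close paralog, had 16 and 19 reads in set2Δ, against 1 and 29 in wild type. SNR37, a small nucleolar RNA gene, had 61 and 14 reads in set2Δ, against 29 and 28 in wild type. VPS75, a histone chaperone gene, had 11 and 7, against 1 and 19, and ARF2, a small GTPase gene of the Golgi, 11 and 15, against 2 and 23. In each of these 7 hosts the wild-type library at 25 °C held 29 reads or fewer. In set1Δ RPS2 had 32 and 12 reads, RPS16B 12 and 4, HSC82 13 and 31, and ARF2 4 and 8. The excess over wild type at 25 °C in RPS2, RPS16B and HSC82 was thus not set2Δ's alone. MF(ALPHA)1 was also higher at 25 °C, by at least 9.27-fold against a floor of 3 reads for its 0 in wild type.

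On the host scale, hosts lower at 25 °C only were SNR30, CCW14, RPL23B, RPP2A, TEF1, APE3 and PRC1. CCW14, a glycoprotein of the inner cell wall, had 17 and 32 reads in set2Δ, against 58 and 42 in wild type. Its host-scale log2 ratio was -1.83 at 25 °C (-2.70 to -1.03) and 0.03 at 37 °C (-0.68 to 0.73), and these differed by 1.84 (0.82 to 2.85). Over 4 scalings the CCW14 ratio ran from -1.91 to -1.22 at 25 °C and from -0.53 to 0.12 at 37 °C, so the size of that difference depends on the scaling. RPL23B had 11 and 13 reads in set2Δ, against 29 and 16 in wild type, and RPP2A, a protein of the ribosomal stalk, 11 and 10, against 26 and 12. TEF1, translation elongation factor 1 alpha, had 14 and 12 reads in set2Δ, against 31 and 23 in wild type, and its copy TEF2 has nearly the same sequence. The vacuolar protease genes APE3 and PRC1 had 10 and 10, and 3 and 6, reads in set2Δ, against 23 and 20, and 12 and 15, in wild type. In all, 4 of 29 ribosomal protein hosts were higher and 3 lower at 25 °C, beside 8.33% higher and 9.09% lower over all hosts.

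Hosts higher at 37 °C only included RPP0, the core protein of the ribosomal stalk, with 47 and 32 reads in set2Δ, against 44 and 17 in wild type. EGT2, a wall gene of the daughter cell, had 11 and 27, against 12 and 17. RPL34A had 8 and 12 reads in set2Δ, against 8 and 4 in wild type, SNR49 53 and 20, against 56 and 12, LEU4 7 and 22, against 4 and 13, and HPF1 9 and 11, against 2 and 4. HPF1 was also higher at 25 °C by ratio, but its interval there included no difference. Lower at 37 °C only were LSB3, MRM2 and YSC84, each through a splice-like form.

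Forms that resemble introns were followed separately, because the authors' table gives every form a p-value, and forms with a low one mostly have intron ends. Those with a deposited p-value under 0.05 are called low-p here; what the value tests is not stated. In all 454 low-p forms had a read in the 4 libraries. They took 3.77% and 3.92% of the reads on coding hosts in set2Δ, against 3.52% and 4.04% in wild type. The 95% Wilson intervals overlapped within each temperature, at 3.58 to 3.97% in set2Δ, against 3.32 to 3.72% in wild type at 25 °C.

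The share at 37 °C depended on a few heavily read hosts. Without ECM33, RPS22B, APE2, RPS25A and RPS10B, low-p forms took 2.18% of coding reads in set2Δ (671 reads), against 2.68% in wild type (1157 reads), a ratio of 0.811. With the 20 most-read low-p hosts left out, they took 1.42% in set2Δ and 1.65% in wild type, a ratio of 0.86. The log2 ratio was -0.30 (-0.44 to -0.17) without 5 hosts and -0.22 (-0.39 to -0.05) without 20. At 25 °C the same shares without 5 hosts were 1.02% in set2Δ and 0.901% in wild type, and the interval of their log2 ratio, -0.04 to 0.40, included 0. The hosts left out were picked by their reads in these libraries, so the shares are a description.

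On the form scale 16 of 55 low-p forms with enough reads at 37 °C were past 2-fold lower in set2Δ and 1 was higher. The share lower, 29.1%, stands beside 7.67% for all forms and 7.40% (25 of 338) for the other forms of coding hosts. The median log2 ratio was -1.09 for the 55 low-p forms and -0.28 for those 338. With totals that leave out SCR1, 13 were lower and 2 higher, against 11 lower and 12 higher of the 338. Scaled to the reads on coding hosts alone, 11 were lower and 4 higher, against 8 lower and 15 higher. At 25 °C, 6 of 22 low-p forms were higher on the form scale and 0 lower, beside 40 higher (13.0%) and 9 lower of 307 other forms of coding hosts, and both sets had a median log2 ratio of 0.38. On the scale of coding reads 2 of the 22 were higher and 0 lower, beside 8 higher and 27 lower of the 307. At 37 °C the difference rests on 1 library a side, the wild-type one with 1741 low-p reads and the set2Δ one with 1208, and the set1Δ library had 964. In that pair the SCR1 share differed as well, and its part in the result was not tested. Most of the 16 lower forms reached 10 reads in wild type alone. IWR1, for example, had 0 reads in set2Δ against 10 in wild type. Low-p forms with fewer reads enter neither the counts nor the medians. Over all low-p forms the share of coding reads at 37 °C was 3.92% in set2Δ, against 4.04% in wild type, and 2.45% in set1Δ.

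**Figure D4:**
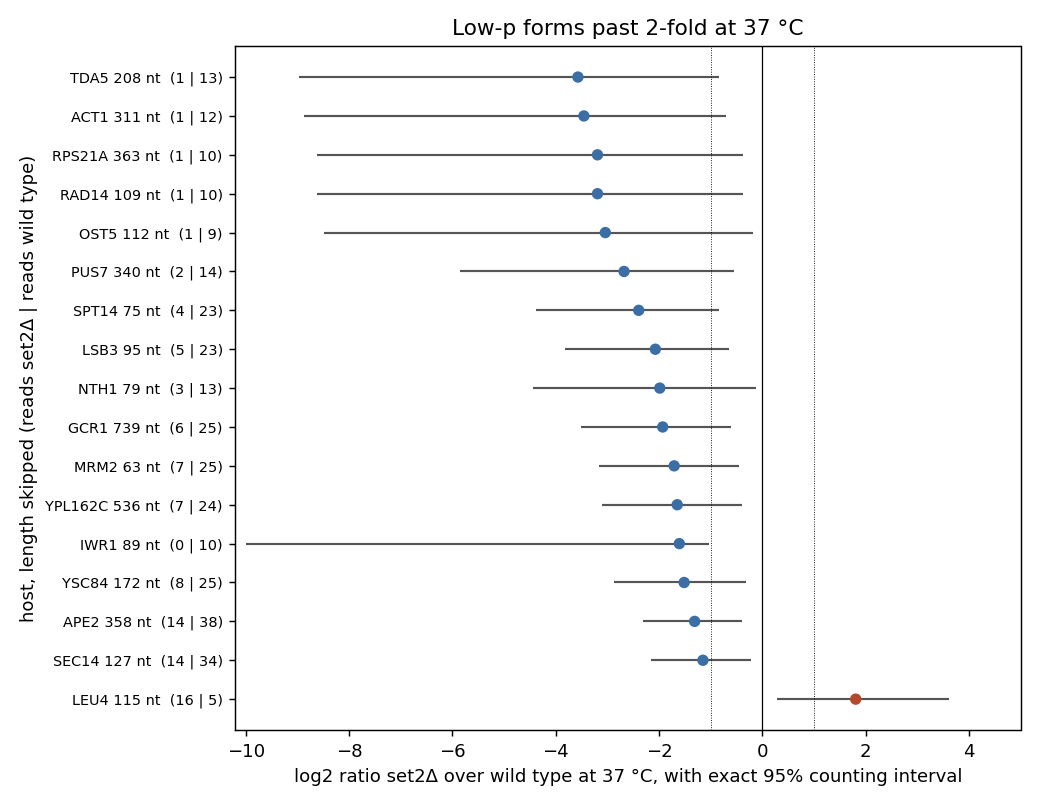
The 17 low-p forms past 2-fold at 37 °C, with the form-scale log2 ratio of set2Δ over wild type (points) and its exact 95% counting interval (lines); each row names the host, the length skipped and the reads in set2Δ and in wild type. LEU4 alone lies above 0; IWR1 has 0 reads in set2Δ, so its point uses 3 reads and its line has no lower end.

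Of the 16 lower forms, 11 use an annotated 5′ splice site with another 3′ end, 4 lie in hosts with no annotated intron and 1, in GCR1, uses no annotated site. Among the 55 low-p forms tested, 32, 15 and 4 were of these kinds, so the split is close to that of the forms tested. SPT14 makes the first intermediate of the glycolipid that anchors wall proteins. Its form from the annotated 5′ site had 4 and 4 reads in set2Δ, against 0 and 23 in wild type. Its form-scale log2 ratio at 37 °C was -2.39 (-4.38 to -0.84). OST5, a subunit of the enzyme that adds sugars to secreted proteins, had 0 and 1 reads in set2Δ, against 0 and 9 in wild type. SEC14, a phospholipid transfer protein of the Golgi, had 11 and 14 reads in set2Δ, against 8 and 34 in wild type, and a log2 ratio of -1.15 at 37 °C (-2.16 to -0.21). In all of these the wild-type library at 37 °C was the highest of the 4.

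The actin gene ACT1 had 0 and 1 reads on a 311 nt form in set2Δ, against 0 and 12 in wild type. LSB3 and YSC84, a pair of related proteins of actin patches, had 12 and 5, and 3 and 8, reads in set2Δ, against 10 and 23, and 2 and 25, in wild type. TDA5's 208 nt form had 4 and 1 reads in set2Δ, against 9 and 13 in wild type. Forms of RAD14, a DNA repair gene, and RPS21A had 1 read each in set2Δ at 37 °C, against 10 each in wild type. IWR1, which brings RNA polymerase II into the nucleus, had 1 and 0 reads in set2Δ, against 7 and 10 in wild type, at least 3.04-fold lower at 37 °C for a floor of 3 reads. In set1Δ at 37 °C the counts of these forms lay between 0 and 23, with 2 in SPT14, 0 in OST5 and SEC14, and 23 in TDA5.

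The 4 lower forms in hosts without an annotated intron lie inside coding exons. PUS7, a pseudouridine synthase, had 0 and 2 reads in set2Δ, against 0 and 14 in wild type. NTH1, the neutral trehalase, had 0 and 3, against 0 and 13. MRM2, a methyltransferase of mitochondrial ribosomal RNA, had 4 and 7, against 7 and 25, and YPL162C had 1 and 7, against 4 and 24. LEU4, an enzyme of leucine synthesis, was the exception in direction, with 4 and 16 reads on a 115 nt form inside its coding exon in set2Δ, against 1 and 5 in wild type.

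The sequences of short examples show what was skipped. SPT14 (chrXVI:218647-218721, plus strand) and OST5 (chrVII:73026-73137, minus strand) start at the annotated 5′ site and carry TACTAAC close to an early 3′ end within the intron. MRM2 (chrVII:253186-253248, minus strand) lies in a coding exon and has GT and AG ends without TACTAAC. Capitals mark the first 6 bases, TACTAAC where present and the last 3.
SPT14 75 nt: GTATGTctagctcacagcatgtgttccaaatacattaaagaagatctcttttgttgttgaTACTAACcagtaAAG
OST5 112 nt: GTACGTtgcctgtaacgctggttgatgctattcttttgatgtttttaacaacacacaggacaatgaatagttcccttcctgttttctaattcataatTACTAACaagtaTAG
MRM2 63 nt: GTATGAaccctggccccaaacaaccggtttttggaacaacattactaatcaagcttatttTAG

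In APE2, which encodes an aminopeptidase, a pair of forms shares the 5′ splice site and differs by 7 nt at the 3′ end. The last 60 bases of the longer one, chrXI:155577-155636 on the plus strand, show both AAG ends and TACTAAC in capitals.
APE2 last 60 nt: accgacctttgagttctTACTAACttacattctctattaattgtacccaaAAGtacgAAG
The longer form, 365 nt, had 91 and 113 reads in set2Δ, against 99 and 116 in wild type, and log2 ratios of 0.26 and 0.09 on the form scale. The shorter one, 358 nt, had 5 and 14 reads in set2Δ, against 7 and 38 in wild type. Its form-scale log2 ratio at 37 °C was -1.31 (-2.31 to -0.39). It made up 5.10% and 10.4% of APE2 reads in set2Δ, against 6.36% and 23.5% in wild type, with Wilson intervals at 37 °C of 6.33 to 16.8% in set2Δ and 17.6 to 30.5% in wild type. These shares need no scaling between libraries, but they are shares of APE2 reads on listed, unannotated forms and not of all APE2 splicing. The longer form made up 92.9% and 84.3% of APE2 reads in set2Δ, against 90.0% and 71.6% in wild type, with intervals at 37 °C of 77.2 to 89.5% in set2Δ and 64.2 to 78.0% in wild type. At 37 °C the early AAG thus had a smaller share of these reads in set2Δ than in wild type, with 1 library a side. In set1Δ the shorter form had 2 of 170 APE2 reads at 25 °C and 5 of 112 at 37 °C, so the smaller share is not set2Δ's alone.

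Another 3 heavily read low-p forms were not past 2-fold. ECM33, a wall protein gene, had 332 and 206 reads on its 327 nt form in set2Δ, against 392 and 205 in wild type, a form-scale log2 ratio of 0.14 at 25 °C (-0.07 to 0.36) and 0.14 at 37 °C (-0.15 to 0.42). RPS25A had 100 and 20 reads on its 308 nt leader form in set2Δ, against 136 and 23 in wild type. The RPL30 form of 98 nt, at a ribosomal protein gene that regulates its own splicing, had 1 and 26 reads in set2Δ, against 0 and 48 in wild type, a form-scale log2 ratio of -0.75 at 37 °C (-1.50 to -0.04). By class, forms that end at an annotated 3′ site took 0.973% and 0.445% of coding reads in set2Δ, against 0.561% and 0.304% in wild type, and most of these reads are RPS22B's. Forms that begin at an annotated 5′ site took 1.98% and 2.33% in set2Δ, against 2.17% and 2.59% in wild type.

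Genes were also read by function, on the form scale. Over all forms 8.96% were higher and 2.74% lower at 25 °C, and 1.53% higher and 7.67% lower at 37 °C, and the counts that follow are to be read against these shares. The forms tested at 25 °C include 171 in SCR1, with a median log2 ratio of -0.22. Forms of coding hosts that are not low-p had a median of 0.38 there, with 13.0% higher. At 25 °C, 9 of 31 ribosomal protein forms were higher and 0 lower, with a median log2 ratio of 0.61 beside 0.08 for all forms. At 37 °C, 1 of 34 was higher and 1 lower. Wall proteins with PIR repeats had 3 of 23 forms higher and 4 lower at 25 °C and 1 of 33 higher and 6 lower at 37 °C, all 6 of them in HSP150. HSP150 held 30 of those 33 forms. Other wall proteins had 16 of 96 higher and 2 lower at 25 °C, and 2 of 117 higher and 5 lower at 37 °C. The gap-rich gene SED1, whose repeats encode a wall protein, supplied 14 of those 16 at 25 °C and 61 of the 96 tested. Glycolysis and fermentation genes had 6 of 96 higher and 2 lower at 25 °C and 0 of 85 higher and 7 lower at 37 °C, near the shares over all forms. Heat shock genes had 2 of 4 higher at 25 °C and 2 of 6 lower at 37 °C, and translation elongation genes 3 of 20 higher and 1 of 17 lower. Genes of known regulated splicing, ribosomal protein genes among them, had 1 of 7 higher at 25 °C and 2 of 11 lower at 37 °C. Small nuclear and nucleolar RNA genes had 2 of 43 higher and 2 lower at 25 °C, and 1 of 29 higher and 3 lower at 37 °C. SCR1 and the other noncoding RNA genes had 1 of 172 higher and 4 lower at 25 °C, and 3 of 163 higher and 0 lower at 37 °C. On the host scale, ribosomal protein hosts had a median log2 ratio of 0.03 at 25 °C and -0.04 at 37 °C, beside -0.21 and -0.14 for all hosts.

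Genes tied to Set2's known roles left almost no reads in this table. The Rpd3S subunits and other readers of the lysine 36 mark had 0 reads on 7 listed genes. Genes reported to start transcription internally without Set2 had 1 read in all, in SPB4, in set2Δ at 37 °C. Core histone genes had 4 and 2 reads in set2Δ, against 1 and 0 in wild type. The table lists only spliced reads, so internal starts in these genes could not be followed with it.

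Presence and absence of forms showed no clear lean among low-p forms. Of 454, 41 were seen in all 4 libraries, 9 in both set2Δ libraries and no wild-type library, and 9 in both wild-type libraries and no set2Δ library. None of these 18 exceeded 5 reads in sum; the top ones were a PAL2 and an RPS0B form in set2Δ, and the HMRA1 forms in wild type. Among the other 2692 forms, 50 were seen in both set2Δ libraries alone and 84 in both wild-type libraries alone. The number of distinct forms expected at 214055 reads was 1493 and 1660 in set2Δ, against 1244 and 2001 in wild type. Outside SCR1, at 39068 reads, it was 1259 and 1510, against 1196 and 1553, so the difference was small once SCR1 was set aside.

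The 117 forms past 2-fold at either temperature were compared with the 563 tested that were not. GT and AG ends were found in 19.7% of the first and 9.24% of the second. A repeat of at least 6 nt at the junction was found in 14.5% and 11.7%, and a place within a coding exon in 67.5% and 56.1%. SCR1 forms, which lie in no coding exon, were 7 of the 117 and 164 of the 563. These shares are not corrected for that difference in make-up, so no lean toward coding exons is drawn from them. Forms with GT and AG ends were 17 of the 54 past 2-fold at 37 °C (31.5%) and 6 of the 64 at 25 °C (9.38%). Of the 23 low-p forms called at either temperature, 17 hold TACTAAC. Most of the 58 low-p forms tested hold it too, so no lean is drawn from this count.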

How the data were processed

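RNA sequencing counts of unannotated splice forms were used for 4 of 12 libraries, with the 2 set1Δ libraries for side-by-side values. The deposited table holds counts per form, which the authors did not scale, and 1 deposited p-value per form whose test is not stated. Per the submitters' processing notes, CASAVA and STAR 2.4.0 were used with sacCer3, which is R64, the reference used here from RefSeq. Strand use in counting is not given in the sources used here. Whole-library depth is unknown, and a column total counts only reads on listed forms. Host names of 6101 of 6195 forms matched the annotation, and 29 forms had none. All 12 library columns matched a sample.

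Members, gene lists and tests were chosen with earlier results of these data known. Named genes are the forms and hosts past the limits at both temperatures, the strongest at 1 temperature with under 1.5-fold at the other, up to 4 most-read hosts of each gene list, mating-type and marker genes with a read, and the 10 most-read low-p forms; the further low-p forms at 37 °C and hosts named were chosen after their values were seen. Forms and host sums were tested with edgeR 4.0.16 (R 4.3.3; filterByExpr, TMM, glmQLFit, temperature as a term, Benjamini-Hochberg adjustment), with DESeq2 1.42.0 as an alternative, and the fits were tested on simulated data. SEs were derived by dividing each log2 fold change by the root of its F statistic and are approximate. Within a temperature, ratios of scaled counts carry exact Clopper-Pearson intervals of 95%, with 3 reads in place of a 0. Shares carry Wilson intervals. Differences between temperatures add 0.5 reads to each count. Promoters were not examined.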

Additional observations from a re-analysis of the deposited data

How the results depend on the processing

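No form or host past the limits turned its direction among those named, but values short of them did: the ratio of distinct forms changed sign, as did those of hosts named in the report on column totals, and the balance of higher and lower forms at 25 °C turned with the scaling. The fit without temperature as a replicate block called 0 forms and 0 hosts, as with the block, and each group has 1 library, so the only pairing is by temperature. With totals that leave out SCR1 the edgeR fit called 2 forms; with a minimum of 10 reads, or with the set1Δ libraries in the fit, it called 1 host, MF(ALPHA)1, in each case (adjusted p 0.0182 and 0.0475). Forms past 2-fold at 37 °C, 54 in the main setting, numbered 82 on column totals, 30 with at least 20 reads and 25 at 4-fold; at 25 °C, 64 became 21 at 4-fold. Forms alike at both temperatures, 1 in the main setting, numbered 2 on column totals, 4 without SCR1, 3 with the TMM factors of hosts, chosen after seeing the data, and 0 at 4-fold. Hosts at 25 °C, 23 in the main setting, numbered 13 with 20 reads and 11 at 4-fold. Hosts at 37 °C, also 23, numbered 39 on column totals, 15 with 20 reads and 5 at 4-fold. Hosts alike at both temperatures, 2 in the main setting, numbered 1 with RLE size factors, 1 without SCR1, 0 on column totals and 0 at 4-fold. The log2 ratio of the low-p share at 37 °C, -0.04, was -0.32 once the 10 forms of that kind with most reads were set aside. The log2 ratio of distinct forms, 0.26 at 25 °C and -0.27 at 37 °C, was 0.20 and 0.0326 for low-p forms, 0.0750 and -0.0403 without SCR1, and -0.0439 and -0.22 for forms with 3 reads and no rarefying. Stricter read and fold limits leave fewer forms by construction; the cause of the other shifts was not tested. Among values of single forms and hosts, 487 stayed, 66 moved and 2 passed the threshold.

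With 1 library per condition there was no replicate to leave out, and 1 residual degree of freedom carries the estimate of spread in the edgeR fit. Most named hosts and low-p forms rest on few reads in a library, and their counting intervals span several-fold.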
